A study of Mus musculus with 10 samples.

Results

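The 32 genes described here make, move and sense bile acids in the mouse liver. They were taken by symbol from the deposited gene counts of 10 liver libraries, and all 32 had a row among the 46071 genes of the table. In all, 31 had enough counts to be tested; Slc51a, with 0 or 1 count in every library, did not. The control group (4 libraries, numbered 1 to 4) came from a father and a mother that both carried the insulin receptor gene flanked by lox sites and no Albumin-Cre, after 4 generations of crosses between such mice. LIRKO mice carry the same lox/lox receptor gene plus 1 copy of Albumin-Cre, a recombinase driven by the albumin promoter and so active in hepatocytes. The FL group (3 libraries, numbered 5 to 7) had a LIRKO father and a control mother. The ML group (3 libraries, numbered 8 to 10) was the reverse cross, in which the mother was LIRKO. The offspring's own Cre status, sex, age, litter and diet are not given in the labels, nor is it said that the libraries come from different animals. P-values here therefore speak only of the scatter among the libraries.

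Hepatocytes turn cholesterol into bile acids along a classic route opened by CYP7A1 and an alternative route opened by CYP27A1 and continued by CYP7B1. CYP8B1 sends intermediates towards cholic acid, and in mice CYP2C70 turns chenodeoxycholic acid into the more hydrophilic muricholic acids. Bile acids are joined to taurine, pumped into the canaliculus, reabsorbed in the gut and taken up again from portal blood. They bind the nuclear receptor NR1H4 (FXR), which induces NR0B2 (SHP) and the export pumps; intestinal FGF15 reaches the hepatocyte receptor FGFR4 with its partner KLB, and both signals lower Cyp7a1 and Cyp8b1.

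Library totals ran from 18655506 to 39379940 counts. Control 1 and ML 9 stood apart: their short genes (exons under 1000 bp) exceeded the mean of the 10 libraries by a median of 0.28 and 1.22 on the log2 scale, against -0.39 to 0.19 in the other 8. Insr, the receptor gene deleted in LIRKO hepatocytes, had 62.9, 82.2, 128 and 69.1 CPM in controls, 77.6, 59.3 and 59.4 in FL and 54.4, 28.2 and 55.2 in ML. With TMM scaling all ML libraries lay below all controls for Insr, as for 2.86% of all genes, and FL overlapped controls. With counts scaled by library totals alone, ML 8 lay above control 1. The ML log2 fold change was -0.90 (SE 0.34, edgeR adjusted p 0.301). Values are CPM, each library's counts set to a common total and scaled by TMM factors, unless stated. Hepatocyte marker genes (8 of 8 tested) summed to 60180 to 103870 CPM in every library. Bulk RNA cannot tell fewer cells of a type from less RNA per cell. Cholangiocyte markers (10 of 11 tested), the other cells that handle bile, summed to 129 to 193 CPM in controls. Their sum was 116 to 165 CPM in FL, and ML held 132 to 217. Most of that sum was Aqp1 and Spp1, and 4 of the 10 (Krt19, Krt7, Cldn7 and Tspan8) were higher in ML at an unadjusted edgeR p under 0.05, none passing. Their part in the ML values was not tested. Fgf15 had no count in any library.

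Among the 25 genes with a promoter in the RefSeq table (GRCm38.p6), exactly 2 held the HNF4A motif searched, CAAAGTCCA, in the 250 bases before the start: Cyp8b1 and Cyp2c70. They are printed because these 2 enzymes of competing branches had FL log2 fold changes against control of opposite sign, as described below. For Cyp8b1 the FL and control libraries overlapped. HNF4A is a nuclear receptor of hepatocytes. Each sequence runs 5' to 3' along the gene, with the motif in capitals. The Cyp8b1 stretch is chr9:121916306-121916555, minus strand, with the motif from 67 to 59 bases before the start. The Cyp2c70 stretch is chr19:40187287-40187536, minus strand, with the motif from 64 to 56 bases before the start. Distances are from the RefSeq start, which for Cyp2c70 lies inside the GENCODE gene span given below, so the end of its stretch falls within that span.
Cyp8b1: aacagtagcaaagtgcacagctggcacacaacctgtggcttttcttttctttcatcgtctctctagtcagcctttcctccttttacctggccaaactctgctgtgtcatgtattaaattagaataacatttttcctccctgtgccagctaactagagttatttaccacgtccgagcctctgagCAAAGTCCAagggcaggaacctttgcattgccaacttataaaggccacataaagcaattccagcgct
Cyp2c70: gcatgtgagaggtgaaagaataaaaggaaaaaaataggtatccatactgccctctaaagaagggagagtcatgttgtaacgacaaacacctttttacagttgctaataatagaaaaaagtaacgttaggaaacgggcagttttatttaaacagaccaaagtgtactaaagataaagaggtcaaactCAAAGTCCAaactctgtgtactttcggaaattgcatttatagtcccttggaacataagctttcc
Both matches lie on the gene's own strand. Searched on both strands, this motif was in 0.384% of 32851 promoters. The NR1H4 element, an inverted repeat of AGGTCA with 1 base between the copies, was in 0.0244% of all promoters and in none of the 25 genes, and the NR5A2 motif CAAGGTCA was in 1.33% and in none. Cyp7a1 and Cyp7b1 had no promoter in that table and so were not searched for any motif. The NR1H4 and NR5A2 motifs share the letters AGGTCA and so can overlap. A match is a run of letters and was not tested as a binding site.

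Per kb of exon, the members spanned several orders of magnitude. Scp2, whose product cleaves the side chain and carries sterols, had the highest mean over the 10 libraries at 993 CPM per kb. Next came Cyp2c70 at 350.0, the conjugation ligase Slc27a5 at 326 and the acyl-CoA synthetase Slc27a2 at 293 CPM per kb. Cyp7a1, the rate-limiting enzyme, was at 26.0 and its feedback repressor Nr0b2 at 26.8 CPM per kb, and these neighbours in the order do not differ beyond their spread. The lowest were the basolateral exporters Slc51b at 0.357 and Abcc4 at 0.260 CPM per kb, then Slc51a. Slc51a and Slc51b form the heteromeric bile acid exporter OSTα-OSTβ. The exons of Slc51a share 567 bases with Pcyt1a on the other strand.

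**Figure D1:**
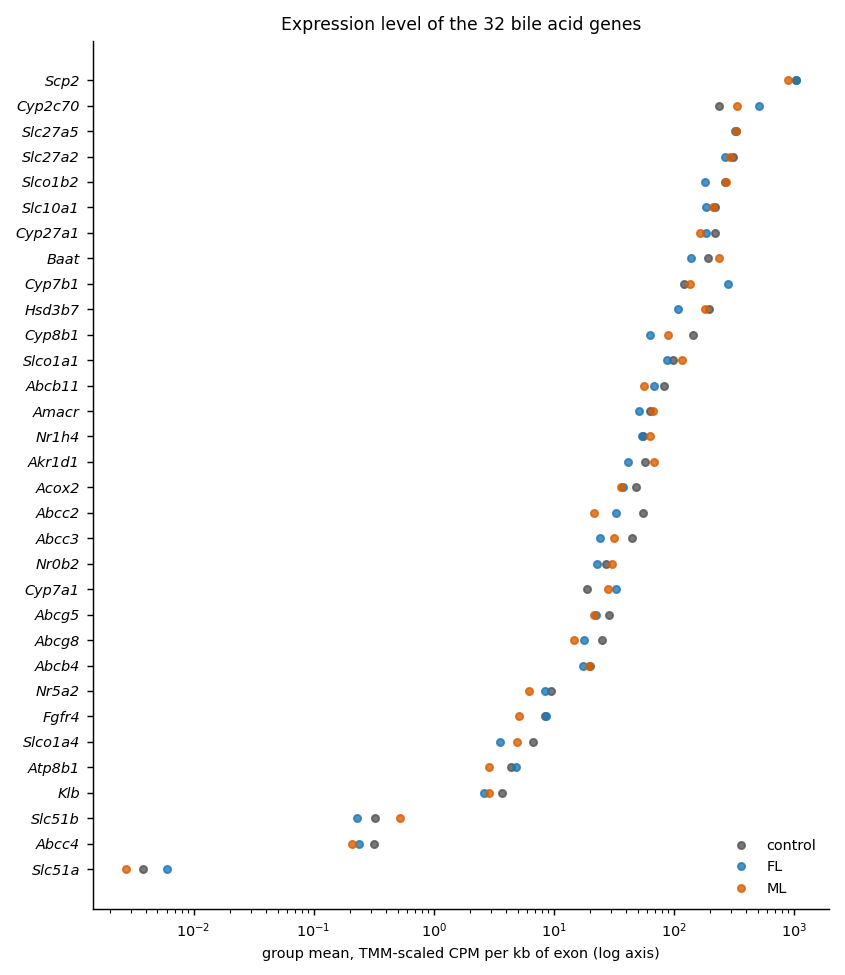
Group mean of each of the 32 bile acid genes in TMM-scaled CPM per kb of exon (log axis), ordered by the mean over all libraries, with controls in grey, FL in blue and ML in orange. Scp2 is highest, Slc51a lowest, and the FL point of Cyp2c70 lies to the right of its control point while that of Cyp8b1 lies to the left.

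In FL livers the 6 members with the lowest p against control were 4 enzymes and 2 transporters. The enzymes Cyp2c70 and Cyp7b1 lay more than 2-fold above control, and Cyp8b1 lay more than 2-fold below. Hsd3b7, the uptake carrier Slco1a4 and the basolateral pump Abcc3 lay 1.83-fold to 1.88-fold below control. None of the 31 passed an edgeR Benjamini-Hochberg adjusted p under 0.05 over all 14820 genes tested, where 0.0135% of all genes passed. At an unadjusted edgeR p under 0.05 there were 2 members higher and 4 lower, against 1.63% and 1.90% of all genes. DESeq2 called 1 of 31, Cyp2c70, against 0.322% of its genes; limma-voom called none. In direction, 26 of 31 lay below 0, against 55.3% of all genes, at a median log2 fold change of -0.285 against -0.05 over all genes. The 26 became 21 without control 3 and 22 with no scaling factors. The 6 became 3 without control 4, FL 5 or FL 7.

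Cyp2c70 (ENSMUSG00000060613, chromosome 19, 40153353 to 40187333) had 412, 550.5, 429.6 and 504 CPM in controls, 960.2, 922 and 1158 in FL and 606, 781 and 611 in ML. With TMM scaling the 3 groups did not overlap: every ML library lay above every control and below every FL library. With counts scaled by library totals alone, ML 9 and ML 10 lay within the control range. The control mean was 474 ± 64.9 CPM (SD, n = 4). The FL mean was 1014 ± 127 CPM (SD, n = 3), and the ML mean 666 ± 99.5 CPM (SD, n = 3). Against control the FL log2 difference was 1.10 (SE 0.26), at an edgeR adjusted p of 0.575, and that p ran from 0.00336 (DESeq2) to 0.9999 over 18 alternatives. The log2 difference stayed between 0.99 and 1.22, and FL lay above control in 3 of 3 libraries under all 3 scalings tried. With TMM scaling Cyp2c70 was the 1 member separated upwards in FL, where 2.79% of all genes were. Cyp2c70 lies in the Cyp2c family, whose related sequences can share reads, so its count carries that uncertainty.

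Cyp7b1 (chromosome 3, 18071950 to 18243338), the oxysterol hydroxylase of the alternative route, had 153, 200.1, 449 and 252 CPM in controls. It had 725, 422 and 678 CPM in FL and 249, 286 and 344 in ML. FL 6 lay inside the control range through control 3, though not with counts scaled by library totals alone, where FL and control were separated. All FL libraries lay above all ML libraries. The FL mean of 608 ± 163 CPM (SD, n = 3) stood against 264 ± 130.2 (SD, n = 4) in controls. On the log2 scale FL lay 1.21 above control (SE 0.38, edgeR adjusted p 0.932). This value was 1.59 without control 3 and 1.02 without control 1.

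Cyp8b1 (chromosome 9, 121914356 to 121916305) had 218, 204, 352 and 343 CPM in controls and 83.8, 233 and 52.5 in FL. ML had 152, 224 and 147 CPM. FL 5 and FL 7 lay below every other library, and FL 6 lay inside the control range. The log2 fold change in FL was -1.18 (SE 0.48, edgeR adjusted p 0.9997). It was -2.03 without FL 6 and -0.82 without FL 7, so single FL libraries moved it widely.

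**Figure D2:**
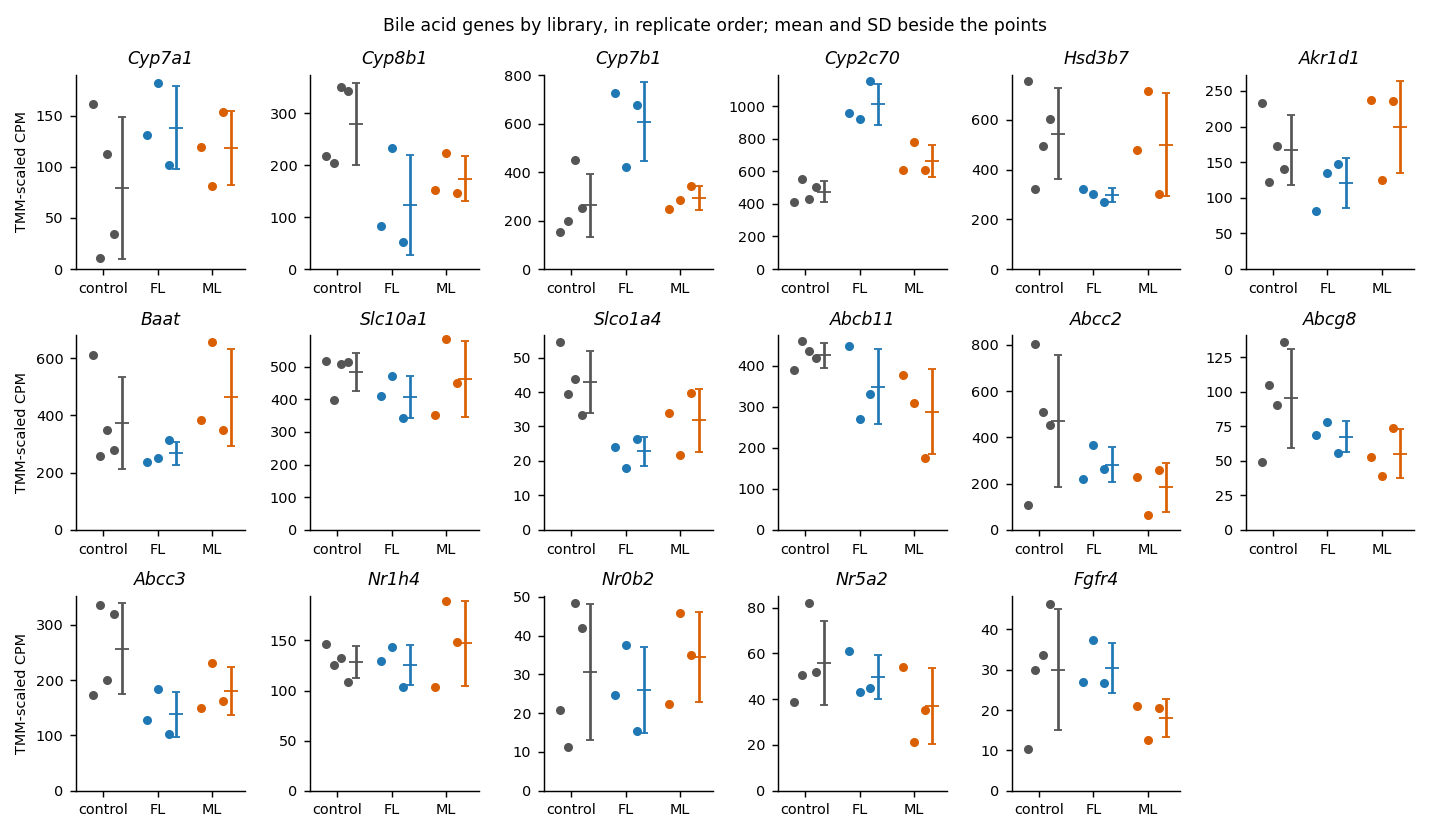
TMM-scaled CPM of 17 bile acid genes in each library, with a point per library in replicate order and the group mean and SD beside them (control n = 4, FL n = 3, ML n = 3). At this scaling Cyp2c70 is the gene whose 3 groups do not overlap, while Cyp7a1 spans 10.6 to 161 CPM within controls.

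A ratio of 2 genes within a library does not depend on how libraries are scaled. The following ratios were chosen after the values were seen and are given without a test. Per exon length, Cyp2c70 over Cyp8b1 was 1.86, 2.65, 1.20 and 1.45 in controls. The same ratio was 11.3, 3.90 and 21.7 in FL and 3.93, 3.43 and 4.08 in ML. All 6 libraries with a LIRKO parent therefore lay above all 4 controls. Cyp8b1 over Cyp7b1 was 1.59, 1.13, 0.870 and 1.51 in controls against 0.128, 0.613 and 0.0861 in FL. In ML that ratio was 0.678, 0.872 and 0.475, where ML 9 lay just inside the control range. Cyp7b1 over Cyp7a1 overlapped in all 3 groups, running from 1.83 to 36.4 within controls alone.

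**Figure D3:**
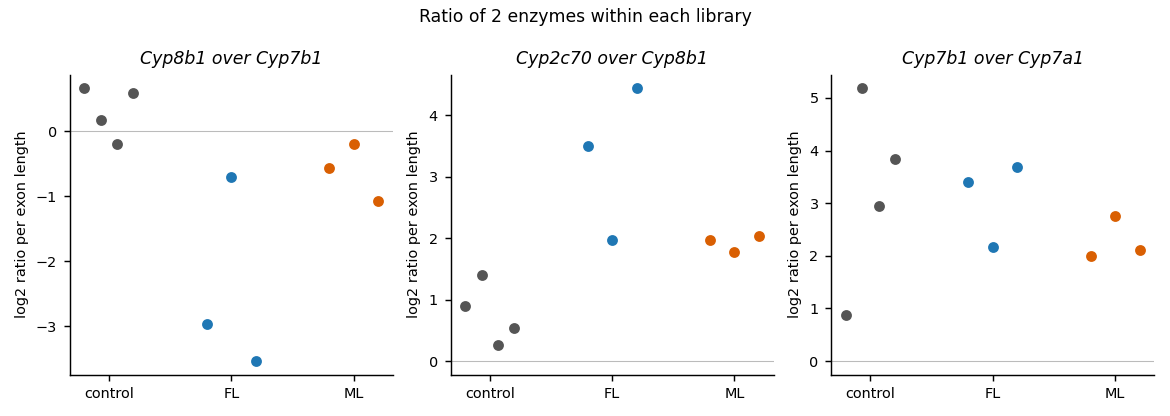
Log2 ratio of 2 enzymes per exon length within each library, for Cyp8b1 over Cyp7b1, Cyp2c70 over Cyp8b1 and Cyp7b1 over Cyp7a1, with a point per library. In the middle panel the 6 FL and ML points lie between 1.78 and 4.44, above the 4 controls at 0.27 to 1.41.

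Cyp7a1 (chromosome 4, 6265612 to 6275633) was the most scattered of the enzymes. Controls had 161, 10.6, 112 and 33.95 CPM, FL had 131, 181.5 and 102, and ML had 119.5, 81.05 and 153. FL 6 lay above the highest control, and the other FL and all ML libraries lay within the control range. The log2 fold change was 0.80 (SE 0.675) in FL and 0.57 (SE 0.675) in ML, with edgeR adjusted p of 0.9997 and 0.659. Without control 2 these values were 0.43 and 0.21, and without control 1 they were 1.40 and 1.18. With limma-voom and quality weights they were 1.79 and 1.86, where the ML adjusted p was 0.0683. Its raw counts ran from 416 in control 2 to 6267 in FL 6.

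Hsd3b7, which acts after the first hydroxylation on both routes, had 757, 324, 494 and 602 CPM in controls and 321, 301 and 268 in FL. ML had 478, 717 and 303 CPM. The FL libraries lay just below the lowest control, a separation not seen when counts were scaled by library totals alone. In GENCODE M21 its exons share 1729 bases with 9430064I24Rik on the other strand and 1717 with Gm49388 on the same strand. Neither of those genes had a row in the count table used here. The log2 fold change in FL was -0.875 (SE 0.37, edgeR adjusted p 0.9997). With Slco1a4 it made 2 members separated downwards in FL, against 2.92% of all genes.

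The remaining enzymes differed less. Akr1d1, which reduces the sterol ring, had 234, 122, 172 and 140.2 CPM in controls, 81.4, 134 and 147 in FL and 238, 125 and 236 in ML. Baat, which attaches taurine, had 610.1, 258, 348 and 280.4 CPM in controls, 239, 250.1 and 314 in FL and 384, 658 and 348 in ML. Baat overlapped between FL and control and was lower in all FL than in all ML libraries. Cyp27a1, Amacr, Slc27a5, Slc27a2, Acox2 and Scp2 overlapped between control and both other groups, with FL log2 fold changes from -0.38 to -0.01. These carry out side-chain oxidation, racemisation and activation, much of it in peroxisomes. In all, 10 of 13 enzymes lay below 0 in FL and 6 of 13 in ML.

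Of the 4 carriers that take bile acids from blood, Slco1a4 (chromosome 6, 141805440 to 141856199) was lowest in FL. Controls had 54.6, 39.3, 43.9 and 33.3 CPM, FL had 24.0, 18.0 and 26.2, and ML had 33.8, 21.8 and 39.8. All FL libraries lay below all controls under all 3 scalings. The log2 fold change was -0.91 (SE 0.31, edgeR adjusted p 0.9997). Slc10a1, the sodium-dependent taurocholate carrier, had 517, 398, 508 and 513 CPM in controls, 409.5, 469.9 and 341 in FL and 353, 584 and 450.1 in ML, with overlap throughout. Slco1a1 ran from 314 to 862 CPM and Slco1b2 from 659 to 2515 CPM over the 10 libraries, and both overlapped in every comparison. The Slco1a genes lie side by side and resemble one another, so reads may be divided between them.

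Some of these genes differ between the sexes in mouse liver: Cyp7b1 and Slco1a1 are known as male-biased and Slco1a4 as female-biased. A list of 10 female-biased liver genes, 5 of them tested, summed to 19.7 to 46.2 CPM over the control libraries. FL libraries held 14.1 to 19.2 CPM, below every control, and ML libraries 44.7 to 82.2. Of these sums, Cyp2b9 gave 5.85 to 14.6 CPM in controls and at most 0.145 in FL. Without Cyp2b9, control 3, whose sum was the lowest control, would not lie above the FL libraries. All 5 tested lay below 0 in FL, and Cyp2b9 passed (edgeR adjusted p 0.0124), with a control mean of 8.95 ± 3.88 CPM (SD, n = 4) and an FL mean of 0.095 ± 0.0595 (SD, n = 3). A list of 10 male-biased genes summed to 4315 to 10451 CPM over the control libraries, against 8049 to 10652 for FL and 6996 to 34060 for ML. The highest sum was in ML 9, where Mup20 alone had 28643 CPM. Mup20 has 928 bp of exon, in the short class that was high in ML 9. Of the 10 male-biased genes, 7 lay above 0 in FL and 3 below. Moxd1 passed (edgeR adjusted p 0.0124), with a control mean of 0.168 ± 0.233 CPM (SD, n = 4) and an FL mean of 90.3 ± 60.0 (SD, n = 3). Cyp2b9 and Moxd1 were the 2 genes of the whole table that passed in FL, and both lists were chosen with earlier results known. At an unadjusted edgeR p under 0.05 there were 3 male-biased genes higher and 1 lower, against 1.63% and 1.90% of all genes. The lower gene was Elovl3, at a log2 fold change of -2.285 (SE 0.479, edgeR adjusted p 0.406). Of 9 pericentral genes 7 lay above 0 in FL, and of 9 periportal genes 8 lay below 0, where 55.3% of all genes lay below 0. At an unadjusted edgeR p under 0.05 stood 2 pericentral genes, both higher, and 0 periportal genes, and none passed. The part of these lists in the FL values of the bile acid genes was not tested.

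Of the 6 canalicular exporters, 5 lay below 0 in FL and 6 in ML, against 55.3% and 52.9% of all genes, and none passed. Abcb11, the bile salt export pump and a classic NR1H4 target (chromosome 2, 69238282 to 69342616), had 389, 460.4, 437 and 418 CPM in controls. It had 448, 269.9 and 331 CPM in FL and 379, 310.0 and 176 in ML. All ML libraries lay below the lowest control and FL 5 overlapped the controls. The log2 fold change was -0.285 (SE 0.32) in FL and -0.565 (SE 0.32) in ML, with edgeR adjusted p of 0.9997 and 0.365. In ML it was -0.31 without ML 10.

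Abcc2, which exports conjugated organic anions, had 109, 804, 511 and 454 CPM in controls, 218, 367 and 262 in FL and 229.9, 63.6 and 259 in ML. Control 1 and ML 9 were the lowest libraries, and the other 3 controls lay above all FL and ML libraries. With exons of 8532 bases, Abcc2 is the second longest member after Abcb4. In control 1 and ML 9 genes with over 5000 bp of exon lay furthest below their mean, by a median of -0.26 and -0.53 on the log2 scale. Abcb4 had 98.6 CPM in control 1, against 180.5 to 239 in the other controls. In ML 9 it had 169 CPM, against 167 and 213 in the other ML libraries. The part of exon length in the Abcc2 values was not tested. The ML log2 fold change of -1.35 (SE 0.62) had an edgeR adjusted p of 0.309. It was -1.27 without control 1 and ML 9, -0.93 without ML 9, -0.95 without control 2 and 0.00 with a surrogate variable. In FL it was -0.73 (SE 0.60), or -1.06 without control 1 and -0.345 without control 2.

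Abcg5 and Abcg8 together form the sterol exporter. Abcg8 had 49.5, 105, 90.2 and 136 CPM in controls, 68.8, 78.0 and 55.4 in FL and 53.0, 38.7 and 74.0 in ML. Its ML log2 fold change was -0.79 (SE 0.36, edgeR adjusted p 0.312), or -0.18 with a surrogate variable. The 2 genes run in opposite directions and share 82 exon bases, and the strand setting of the counting is not given. Abcg5 ran from 39.0 to 116 CPM, the phospholipid flippase Abcb4 from 98.6 to 239 and the aminophospholipid flippase Atp8b1 from 6.13 to 43.2, all with overlap between groups.

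On the basolateral side, Abcc3 is the pump that returns conjugates to blood. It had 172, 335, 199.6 and 319 CPM in controls, 128, 183 and 103 in FL and 149, 230.0 and 163 in ML. FL 6 and ML 9 lay within the control range. The FL log2 fold change was -0.89 (SE 0.35, edgeR adjusted p 0.9997) and the ML value -0.51 (SE 0.34, edgeR adjusted p 0.433). Abcc4 lay between 1.18 and 3.26 CPM and Slc51b rested on 3 to 20 counts, with overlap between groups for both.

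Among the nuclear receptors and the FGF receptor pair, 4 of 5 lay below 0 in FL and 3 of 5 in ML, and none passed. Nr1h4 (chromosome 10, 89454234 to 89533585) had 147, 125, 132 and 108 CPM in controls, 129, 144 and 104 in FL and 103, 189 and 149 in ML. Its means of 128 ± 15.9 (SD, n = 4) and 126 ± 20.2 CPM (SD, n = 3) in control and FL differed by less than 1 SD. Its target Nr0b2 had 20.9, 11.2, 48.3 and 42.0 CPM in controls, 24.7, 37.6 and 15.5 in FL and 22.5, 45.7 and 35.0 in ML, overlapping throughout. Nr0b2 represses Cyp7a1 and Cyp8b1 in the textbook loop. In controls 1 to 4, Cyp7a1 was at 161, 10.6, 112 and 33.95 CPM. Control 2 was lowest for both genes, while control 1, highest for Cyp7a1, had 20.9 CPM of Nr0b2. Any relation between the 2 genes was not tested.

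Nr5a2 (LRH-1), an activator of both hydroxylase genes, had 38.6, 50.7, 81.9 and 52.0 CPM in controls, 60.9, 43.3 and 44.7 in FL and 54.2, 21.2 and 35.4 in ML. Fgfr4 had 10.3, 29.8, 33.5 and 46.4 CPM in controls, 26.9, 37.4 and 26.6 in FL and 20.99, 12.65 and 20.38 in ML. Apart from control 1, every control lay above every ML library for Fgfr4. The ML log2 fold changes were -0.59 (SE 0.37) for Nr5a2 and -0.74 (SE 0.43) for Fgfr4, with edgeR adjusted p of 0.396 and 0.380. With a surrogate variable they were -0.13 and 0.09. Klb ran from 6.39 to 19.9 CPM with overlap between groups.

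In ML livers no member passed against control with edgeR, and none of 14820 genes did (0%). At an unadjusted edgeR p under 0.05 stood 1 member, Abcc2, lower, against 7.33% of all genes, and 0 higher, against 8.81%. DESeq2 called 0 of 31, against 0.377% of its genes, and limma-voom called none. In direction 19 of 31 lay below 0, against 52.9% of all genes, at a median of -0.125 against -0.05. With no scaling factors 25 of 31 lay below 0, and the median of all genes moved to -0.245. Separated libraries were seen for Cyp2c70 upwards (2.17% of all genes) and Abcb11 downwards (2.86%). Neither was separated when counts were scaled by library totals alone, where Cyp8b1 was instead. For Cyp2c70 the ML log2 fold change was 0.49 (SE 0.26, edgeR adjusted p 0.345), or 0.05 once the dependence on GC content and exon length was taken out. The count of 1 at an unadjusted p under 0.05 was 6 without control 1 and ML 9 and 0 without ML 9. Marker sums of several other cell types were highest in ML 9, as was the hepatocyte sum at 103870 CPM, while the cholangiocyte sum was 190 CPM there against 217 in ML 8. Kupffer cell markers (8 tested) summed to 1296 CPM there, against 265 to 421.5 in the other ML libraries and 257 to 502 in controls. Erythroid markers (5 of 7 tested) summed to 2115 CPM in ML 9, against 313 and 382 in the other ML libraries and 184 to 626 in controls. Stellate markers reached 502 CPM, endothelial markers 313, T and NK cell markers 13.9 and intestinal markers 629 in ML 9, each above all other libraries. The intestinal sum there was Fabp2, with 965 bp of exon, and Vil1 reached at most 0.552 CPM in ML. The haemoglobin genes of the erythroid list have 667 to 812 bp of exon, in the short class that was high in ML 9. The part of these cells, or of the high short genes, in the ML values was not tested.

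**Figure D4:**
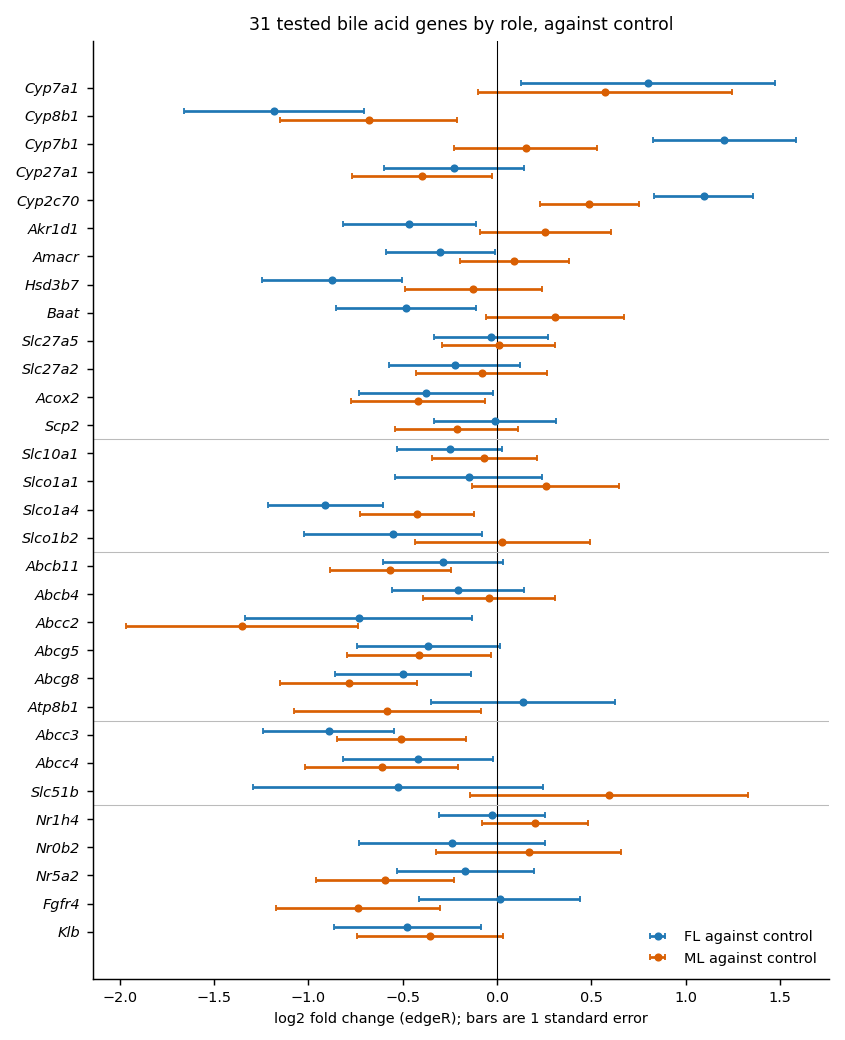
Log2 fold change against control of the 31 tested bile acid genes, FL in blue and ML in orange, with bars of 1 standard error and grey lines between roles. Cyp2c70 and Cyp7b1 stand furthest to the right in FL at 1.10 and 1.21, Cyp8b1 furthest to the left in FL at -1.18 and Abcc2 furthest to the left in ML at -1.35.

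FL and ML were also compared with each other, which tests whether the 2 parental origins differ. No member passed with edgeR, against 0.00675% of all genes, and DESeq2 called 0 of 30, against 0.445%. At an unadjusted edgeR p under 0.05 stood 1 member higher in FL, Cyp7b1, against 7.59% of all genes, and 0 lower, against 12.4%. Its log2 fold change was 1.05 (SE 0.41, edgeR adjusted p 0.238). Cyp2c70 was at 0.61 (SE 0.28, edgeR adjusted p 0.252), Baat at -0.79 (SE 0.39), Hsd3b7 at -0.75 (SE 0.39), Akr1d1 at -0.72 (SE 0.38) and Fgfr4 at 0.75 (SE 0.46). Cyp7b1, Cyp2c70 and Fgfr4 were separated upwards (16.6% of all genes) and Baat downwards (15.1%), shares below the background that 3 against 3 libraries gave here. With library totals alone Baat overlapped and Cyp27a1 was separated upwards. Of the 31, 17 lay below 0, against 47.9% of all genes, and 8 did with no scaling factors, where the median of all genes moved from 0.04 to 0.37.

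**Figure D5:**
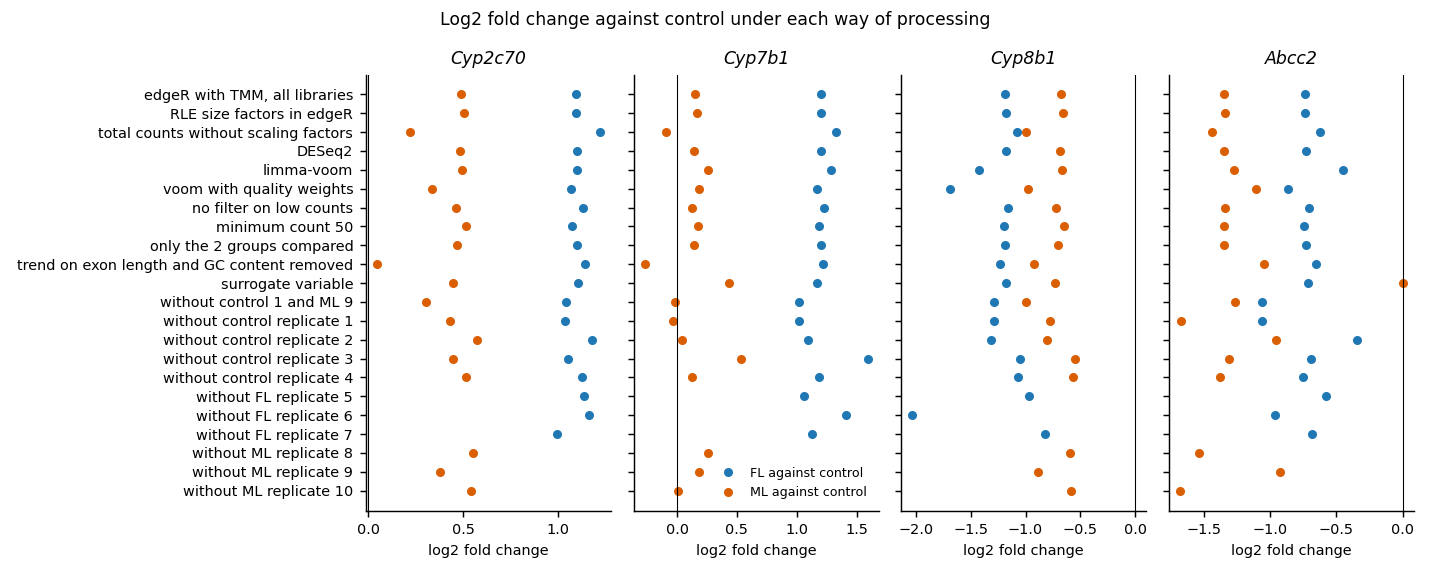
Log2 fold change of Cyp2c70, Cyp7b1, Cyp8b1 and Abcc2 against control under each way of processing and with libraries left out, FL in blue and ML in orange. The FL values of Cyp2c70 stay between 0.99 and 1.22, while the ML value of Abcc2 reaches 0.00 with a surrogate variable.

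A further 63 genes of the pathway were listed by role, of which 58 were tested. None passed with edgeR in any comparison. At an unadjusted edgeR p under 0.05 there were 0 higher and 3 lower in FL, against 1.63% and 1.90% of all genes. In ML there were 4 higher and 3 lower, against 8.81% and 7.33%, and in FL against ML 4 higher and 7 lower, against 7.59% and 12.4%. Of 18 further synthesis, peroxisomal and modifying enzymes, 16 lay below 0 in FL, and the thiolase Acaa1b had a control mean of 1125 ± 341 CPM (SD, n = 4) and an FL mean of 596.5 ± 121 (SD, n = 3). In ML 12 of the 18 lay above 0. Hsd17b6, a steroid dehydrogenase, had a control mean of 159 ± 18.7 CPM (SD, n = 4). Its FL mean was 104 ± 19.6 CPM (SD, n = 3) and its ML mean 403 ± 219 (SD, n = 3). Of 21 further regulators, Nr4a1, an immediate early receptor, had a control mean of 13.4 ± 5.52 CPM (SD, n = 4). Its FL mean was 1.73 ± 1.41 CPM (SD, n = 3) and its ML mean 0.827 ± 0.417 (SD, n = 3), at an edgeR adjusted p of 0.398 and 0.301. The coactivator Ppargc1a stood at -1.27 (SE 0.48) on the log2 scale in FL. The oxysterol receptor Nr1h3 (LXRα) was at 1.19 (SE 0.41) in ML, where ML 9 had 415.5 CPM and the other 9 libraries 73.5 to 142.6. Of 19 further transporters and canalicular partners, 12 lay below 0 in FL and 11 in ML.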

How the data were processed

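Polyadenylated liver RNA was sequenced as directional paired-end libraries, per the labels' protocols. The deposited values are whole-number read counts for each gene, not normalized. STAR, featureCounts and GRCm38 are named in the submitters' processing notes. Their versions, the strand setting and the release of the gene annotation were not given in the sources used here. Symbols, coordinates and exon lengths came from GENCODE M21 on GRCm38, by identifier for 45229 of 46071 rows. Totals were 18655506 to 39379940 counts per library.

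Tests used edgeR 4.0.16 in R 4.3.3: scaling by TMM, the filterByExpr filter (minimum count 10) and a robust quasi-likelihood F test on all 10 libraries with a coefficient per group, which left 14820 genes and 7 residual degrees of freedom. Adjusted p-values are two-sided, Benjamini-Hochberg, over all genes. The standard error (SE) is the log2 fold change over the square root of F. The procedure was tested on simulated counts, of which 14635 genes passed the filter for the FL and control comparison. A small set of these genes was given a change of each size, so the shares found are coarse. Of the 2-fold differences 8% were found, and of the 4-fold differences 66%.

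The members and lists were chosen with earlier results of these data known. Members given in every library were the 6 with the lowest p in a comparison, those whose groups did not overlap with control, and Cyp7a1, Cyp8b1, Abcb11, Slc10a1, Nr1h4 and Nr0b2; other pathway genes were named by lowest p, at most 3 a comparison. Alternatives were DESeq2 1.42.0, limma-voom 3.58.1 with and without quality weights, other scaling and filters, fitting just the pair of groups compared, an adjusted p under 0.1, taking out the dependence on GC content and exon length (mgcv 1.9.3), a surrogate variable (sva 3.50.0) and leaving out libraries. Total-count scaling was added after seeing the data. The replicate numbers 1 to 10 share none between groups. Of the 63 further pathway genes, 1 symbol had no match.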

Additional observations from a re-analysis of the deposited data

Results flagged for a closer look

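Among the 31 tested genes, 3 had a control library far from the other 3 by Dixon's ratio of the gap to the range, whose 95% critical value for 4 samples is 0.829. Chance alone marks about 1 in 20 such groups. Slc10a1 was low in control 2 (ratio 0.926), at 398 CPM against 508 to 517. Scp2 was high in control 3 (ratio 0.894), at 4016 CPM against 3448 to 3508. Slc51b was high in control 3 (ratio 0.834), on 20 counts against 3 to 6.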

How the results depend on the processing

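No paired analysis was possible because the groups share no replicate number. The directions of the 6 lowest-p bile acid genes in FL against control held in all 18 alternatives. For FL against control, 2 genes passed over the whole table; 52 did with DESeq2, 1 with limma-voom, 4 with quality weights, 1 with no filter and 0 to 2 with a library left out (0 without control 1, FL 5, FL 6 or FL 7). Bile acid genes passing were 0, or 1 with DESeq2, where Cyp2c70 was at 1.10 (DESeq2 adjusted p 0.00336). The 6 bile acid genes at an unadjusted p under 0.05 were 10 with quality weights, 10 with a surrogate variable, 9 without control 1 and ML 9, and 3 to 7 with a library left out. For ML against control, 0 genes passed, while 57 did with DESeq2, 3 with no filter and 0 to 1 with a library left out (1 without control 1). The unadjusted count of 1 bile acid gene ran from 0 to 10. The median over bile acid genes was -0.369 with total counts, and -0.314 (without ML 10) to -0.099 with a library left out. The surrogate variable was 0.72 in ML 9, 0.38 in control 1, 0.05 in ML 8 and 0.14 in ML 10. It was -0.31 to -0.06 in FL and -0.31 to -0.20 in the other controls. Because it did not overlap between FL and ML, a fit with it can also take away differences between groups. Including it turned the sign of 3 of the 31 genes in FL against control, 14 in ML against control and 12 in FL against ML. Among the lowest-p genes these were Abcc2 (0.001) and Fgfr4 (0.088) in ML against control, and Baat (0.002) and Fgfr4 (-0.114) in FL against ML; the cause was not tested. For FL against ML, 1 gene passed; 2 did at an adjusted p under 0.1, 0 with total counts, 63 with DESeq2, 4 with quality weights, 2 with no filter, 0 with only the 2 groups, 2 with the length and GC trend removed and 0 to 1 with a library left out (0 without FL 5, FL 6, FL 7 or ML 8). With total counts, 8 of 31 lay below 0 against 17, at a median of 0.245. At 7 residual degrees of freedom, the simulated recovery of 2-fold changes was 8% in FL against control and 2% in ML against control. These shares rest on a small set of changed genes, among 14571 tested for ML against control. Slc51a and Slc51b had at most 1 and 20 counts a library.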
